A study of Rattus norvegicus with 17 samples.

Results

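The transcripts of 5 cell division genes were followed in the spinal cord of 17 rats: Top2a (ENSRNOG00000053047), Mki67 (ENSRNOG00000028137), Ccna2 (ENSRNOG00000015423), Ccnb1 (ENSRNOG00000058539) and Cdk1 (ENSRNOG00000000632). They were chosen by name as genes of the dividing cell, with earlier results of these data known. They are 5 of the 32494 genes in the count table. That table holds identifiers alone, and the names came with the choice of these genes. All 5 passed the filter on low counts, as did 15460 genes in all.

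RNA depleted of ribosomal RNA was sequenced from female young-adult Sprague-Dawley rats aged 10 to 12 weeks, 1 library per rat, in which cervical, thoracic and lumbar cord were combined. Group A had sham injury and sham stimulation (n = 4), group E sham injury and stimulation (n = 5), group B contusional spinal cord injury (SCI) and sham stimulation (n = 3), group C SCI and stimulation (n = 3), and group D SCI, stimulation and pimozide, a dopamine and serotonin receptor antagonist, at 1 mg/kg (n = 2). The contusion was of moderate strength, at thoracic level. Stimulation lasted 2 h, was given through an electrode in the nucleus raphe magnus (NRM) of the hindbrain 72 h after injury, and the cord was taken directly afterwards. All rats carried an electrode and were given anesthetics, an opioid analgesic and an antibiotic. The treatment label of group E says unstimulated, against its title letter, the series design and the methods of the study, which make it the stimulated group. A and E are called intact below (9 rats), and B, C and D injured (8 rats). The markers of neurons and glia could not be matched to identifiers, so the labelled tissue was not checked against them.

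Dividing cells make these transcripts in waves. Cyclin A2 and then cyclin B1 carry the cell through DNA replication and into mitosis, and both can activate the kinase Cdk1. Topoisomerase II alpha untangles the copied chromosomes, and the Ki-67 protein coats them. Resting neurons and most resting glia hold little of any of these RNAs. In the injured cord, microglia, progenitors of oligodendrocytes, astrocytes, endothelial cells and fibroblasts are all known to divide, and marrow-derived cells can enter. Genes of this kind are known for promoters with the CHR element, which is bound by complexes that silence them in resting cells. It was searched for here as the letters TTTGAA or TTCGAA alone. Such promoters are also known for CCAAT boxes, which are bound by NF-Y.

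Promoter sequence from RefSeq, on the rat assembly GRCr8, was at hand for 4 of the 5 genes, all but Ccna2. It is shown because the 4 genes moved together in the data below. Whether the promoters have a part in this was not tested. In capitals are TTTGAA and TTCGAA, and also CCAAT and the E2F-type words TTTGGCGC, TTTCGCGC, TTTCCCGC and TTTGCCGC, each searched on both strands, so that TTCAAA and ATTGG are the same words read from the other strand. The stretches lie at chr10:84473094-84473343 (minus strand) for Top2a, chr2:33655226-33655475 (minus strand) for Ccnb1 and chr20:19265043-19265251 (plus strand) for Cdk1, all before the annotated start, and for Cdk1 also before another annotated start 41 bases further upstream. For Mki67 only 30 bases are shown, chr1:199952682-199952711 (minus strand), which follow another annotated start that lies 254 bases upstream of the one used.
Top2a: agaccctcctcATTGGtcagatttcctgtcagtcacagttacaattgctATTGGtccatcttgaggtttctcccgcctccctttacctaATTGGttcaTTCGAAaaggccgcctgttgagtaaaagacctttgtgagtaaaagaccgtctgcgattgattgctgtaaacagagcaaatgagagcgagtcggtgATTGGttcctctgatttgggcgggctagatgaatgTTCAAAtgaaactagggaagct
Mki67: aTTTGAAccgccgttttcgTTTGAATTGGg
Ccnb1: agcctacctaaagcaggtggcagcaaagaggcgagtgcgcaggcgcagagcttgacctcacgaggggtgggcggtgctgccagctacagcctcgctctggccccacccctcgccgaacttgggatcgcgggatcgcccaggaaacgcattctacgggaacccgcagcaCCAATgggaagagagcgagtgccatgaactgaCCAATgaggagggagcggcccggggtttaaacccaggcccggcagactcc
Cdk1: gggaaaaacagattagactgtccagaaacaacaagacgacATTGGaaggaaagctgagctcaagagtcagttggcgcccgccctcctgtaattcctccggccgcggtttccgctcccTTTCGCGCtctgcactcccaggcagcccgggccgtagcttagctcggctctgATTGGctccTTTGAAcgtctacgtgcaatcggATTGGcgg

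In the window from 250 bases before to 50 after the start, Top2a held 1 TTTGAA and 1 TTCGAA, Mki67 2 TTTGAA and Cdk1 2 TTTGAA, of which 1 lies past the stretch printed and after that other start. Ccnb1 held neither word, and other forms of the CHR element were not searched for. TTTGAA occurred in 18.3% and TTCGAA in 1.69% of 33469 rat promoters of the same length. CCAAT occurred 4 times in Top2a, 4 times in Mki67, 3 times in Cdk1 and 2 times in Ccnb1, against 37.5% of promoters with at least 1, 11.2% with at least 2 and 3.02% with at least 3. In Mki67, 1 CCAAT overlaps a TTTGAA by the letters they share. An E2F-type word occurred only in Cdk1, once, against 2.14% of promoters. These are matches of letters and not sites shown to be bound.

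The level of a gene is given in CPM, the usual unit that divides the counts of a gene by the total of its library, after TMM scaling between libraries. The libraries held 9852873 to 14137717 counts, so 1 CPM rests on at least 9.60 counts. The scaling factors ran from 0.966 to 1.05. Every pair of rats of a group differed by at least 4.39 times the variance expected of counting, and none was treated as a copy of another. The p-values below set differences between groups against the spread between separate rats.

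All 5 genes were low in every intact rat and several times higher in every injured rat. The lowest injured rat exceeded the highest intact rat by 4.81-fold for Top2a, 3.68-fold for Cdk1, 3.02-fold for Mki67, 2.78-fold for Ccna2 and 2.36-fold for Ccnb1. Such a complete separation of 8 from 9 rats held for 5 of 5 genes, against 8.52% of the genes tested. In bulk tissue, fewer cells of a type and less RNA per cell cannot be told apart.

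Top2a, the enzyme that separates sister chromosomes, stood at 3.85, 3.76, 8.36 and 10.3 CPM in rats 70, 82, 83 and 84 of group A, and at 3.66, 5.23, 3.22, 7.51 and 8.67 CPM in rats 69, 85, 86, 87 and 88 of group E. In the injured groups Top2a reached 84.5, 51.8 and 60.8 CPM in rats 91, 94 and 95 of B, 166, 77.1 and 49.4 CPM in rats 89, 90 and 93 of C, and 66.4 and 134 CPM in rats 75 and 76 of D. The intact groups overlapped one another, and so did the injured groups, with rat 89 of C above all others.

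For Mki67, the standard marker of cycling cells, group A had 4.90, 8.47, 14.3 and 14.9 CPM and group E 4.68, 5.47, 5.67, 9.20 and 10.2 CPM, in the same order of rats. Mki67 rose to 79.4, 44.9 and 61.1 CPM in B, 148, 89.7 and 52.0 CPM in C, and 65.6 and 142 CPM in D. Rats 89 and 76 stood highest, and the rat lowest in its group was 94 in B, 93 in C and 75 in D, as for Top2a.

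Ccna2, the cyclin of DNA replication and of the phase before mitosis, had 1.04, 1.10, 1.71 and 1.97 CPM in A and 0.850, 0.937, 0.980, 1.31 and 0.525 CPM in E. In the injured rats Ccna2 had 13.3, 5.48 and 9.05 CPM in B, 24.7, 9.57 and 7.38 CPM in C, and 9.27 and 20.5 CPM in D. The intact values rested on 6 to 20 counts per rat, the injured ones on 57 to 284.

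For Ccnb1, the cyclin of mitosis, group A had 1.56, 2.90, 2.75 and 2.57 CPM and group E 2.30, 2.89, 2.80, 3.38 and 2.98 CPM. Ccnb1 had 13.9, 7.98 and 10.2 CPM in B, 25.1, 10.4 and 8.86 CPM in C, and 13.4 and 23.2 CPM in D. Intact rats lay closer together for this gene than for the others, with an SD of log2 CPM of 0.32 (n = 9) against 0.56 to 0.94.

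Cdk1, the kinase that both cyclins activate, had 0.208, 0.863, 1.23 and 1.68 CPM in A, where the value of rat 70 is 2 counts, and 1.11, 1.02, 1.05, 1.31 and 2.10 CPM in E. Cdk1 had 17.2, 7.98 and 10.5 CPM in B, 29.7, 14.4 and 7.73 CPM in C, and 13.4 and 29.9 CPM in D. RefSeq lists a pseudogene copy of Cdk1 and 1 of Mki67. Whether reads from such a copy were counted with those of the gene was not checked.

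**Figure D1:**
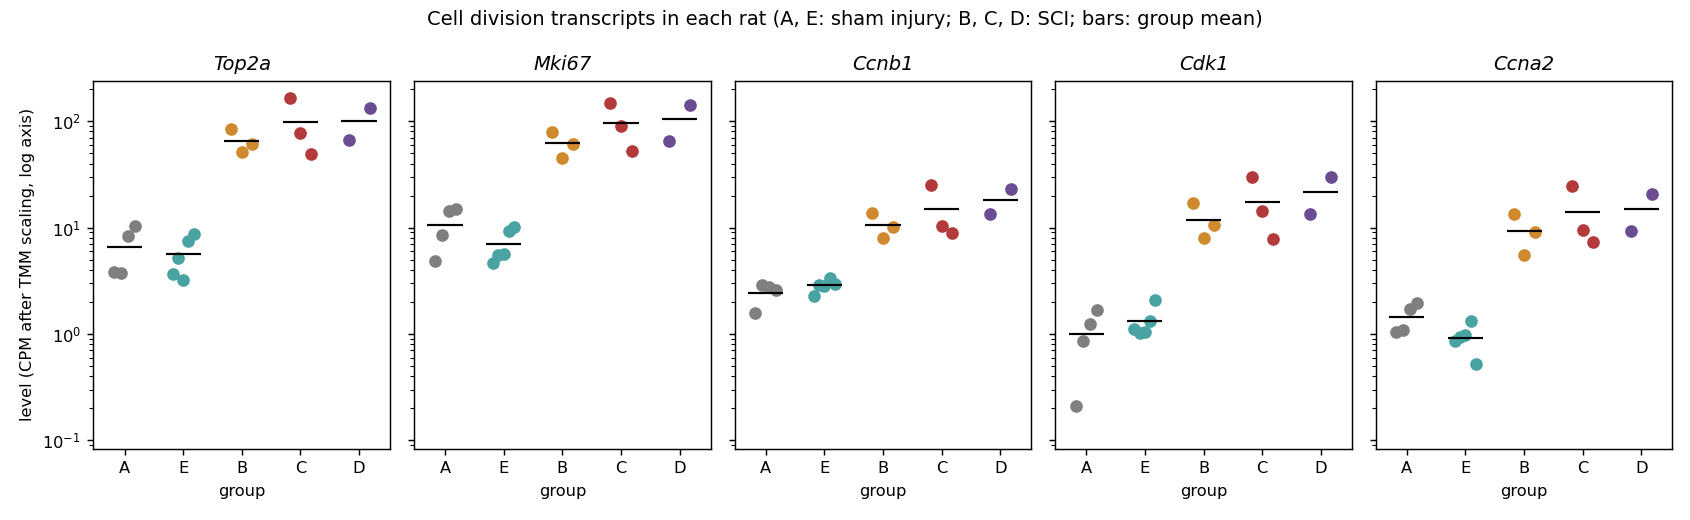
Level of each gene (CPM after TMM scaling, log axis) in each rat by group, 1 point per rat, with bars at the group means. The points of B, C and D lie above all points of A and E in the 5 panels.

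The effect of injury without stimulation, ±SCI(0), compared B with A. All 5 genes were upregulated, by the rule of the study that a gene is called at FDR < 0.05 and an absolute log2(FC) above 1, against 5.09% of the genes tested that were called as higher. Mean levels went from 6.56 ± 3.27 to 65.7 ± 16.9 CPM for Top2a and from 0.996 ± 0.622 to 11.9 ± 4.74 CPM for Cdk1 (SD, n = 4 and 3). The log2(FC) was 3.56 for Cdk1 (SE 0.52, FDR 0.000231, edgeR quasi-likelihood test) and 3.33 for Top2a (SE 0.44, FDR 0.000107). Ccna2 followed at 2.67 (SE 0.45, FDR 0.00081 by the same test), Mki67 at 2.54 (SE 0.39, FDR 0.000406) and Ccnb1 at 2.11 (SE 0.34, FDR 0.000612). The median over the 5 genes was 2.67 and over all genes tested -0.02. Of the 15460 genes, 46 rose more than Cdk1, 59 more than Top2a, and 288 more than Ccnb1.

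In stimulated rats injury was examined by ±SCI(st), C against E. All 5 genes were again upregulated, against 7.34% of genes called as higher. The log2(FC) was 4.13 (SE 0.41) for Top2a, 3.90 (SE 0.43) for Ccna2, 3.79 (SE 0.38) for Mki67, 3.72 (SE 0.45) for Cdk1 and 2.37 (SE 0.31) for Ccnb1. The highest FDR among them was 3.83e-05, for Ccnb1 (edgeR quasi-likelihood test). In ±st/SCI(0), C against A, the values were 4.10 for Cdk1, 3.90 for Top2a, 3.25 for Ccna2, 3.18 for Mki67 and 2.58 for Ccnb1, all 5 called, against 6.7% of genes. Rat 89 of C raised these values: without it they were 3.50 for Top2a, 3.34 for Mki67, 3.19 for Ccna2, 3.07 for Cdk1 and 1.75 for Ccnb1 in ±SCI(st). In ±st/SCI(0) without that rat they were 3.45 for Cdk1, 3.28 for Top2a, 2.73 for Mki67, 2.54 for Ccna2 and 1.96 for Ccnb1, and all 5 were called in both contrasts. These contrasts share group C or group A with one another, and the 3 sets of values are not independent.

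Group D has no contrast with intact rats in the study, so D was set against A and against E as an addition. In D against A the log2(FC) was 4.42 (SE 0.53) for Cdk1, 3.94 (SE 0.46) for Top2a, 3.346 (SE 0.47) for Ccna2, 3.28 (SE 0.42) for Mki67 and 2.88 (SE 0.36) for Ccnb1, all 5 called against 7.47% of genes. In D against E all 5 were called as well, against 7.28%, at 2.67 for Ccnb1 to 4.16 for Top2a. The 2 rats of D weigh on these sizes. Without rat 76 the values in D against A were 2.44 for Ccnb1 to 3.73 for Cdk1 and those in D against E 2.22 for Ccnb1 to 3.57 for Top2a. With the low and high rat numbers fitted as a covariate they were 3.33 for Ccnb1 to 5.18 for Cdk1 and 3.13 for Ccnb1 to 4.85 for Top2a, and all 5 were called under each of these settings. In B against E, where neither injury nor stimulation is shared, all 5 were called against 5.6%, at 1.90 for Ccnb1 to 3.56 for Top2a.

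Over all injured against all intact rats, the mean of 3 groups against the mean of 2, Top2a rose by a log2(FC) of 3.84 (95% interval 3.22 to 4.45), Cdk1 by 3.83 (3.14 to 4.53), Ccna2 by 3.41 (2.79 to 4.04), Mki67 by 3.31 (2.75 to 3.86) and Ccnb1 by 2.42 (1.95 to 2.88). All 5 were called, against 6.97% of genes. In fold terms this is 14.3 for Top2a and 14.3 for Cdk1, 10.7 for Ccna2, 9.88 for Mki67 and 5.34 for Ccnb1.

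Whether stimulation altered the injured cord was asked by ±st(SCI), C against B. All 5 estimates were above 0, and none was called. The log2(FC) was 0.57 for Top2a (95% interval -0.29 to 1.43), 0.64 for Mki67 (-0.17 to 1.46), 0.58 for Ccna2 (-0.28 to 1.44), 0.47 for Ccnb1 (-0.22 to 1.16) and 0.54 for Cdk1 (-0.38 to 1.45). Each had an FDR of 0.999 (edgeR quasi-likelihood test), and 0 of the 15460 genes were called in this contrast, with 476 at an unadjusted p under 0.05. Over all genes, DESeq2 and edgeR's exact test also called 0, a fit of B and C alone called 3, and a rebuild of the pipeline of the study from its methods called 33, none of the 5 among them. Group means were 65.7 CPM in B and 97.5 CPM in C for Top2a, with overlapping rats. The estimates rest on rat 89 of C: without it they ran from -0.15 for Ccnb1 to 0.20 for Mki67. The intervals extend past a log2(FC) of 1 for all 5 genes, so that a rise of this size lies within the error of 3 rats a group.

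Pimozide was examined by ±pim(st/SCI), D against C. The log2(FC) was 0.04 for Top2a (95% interval -0.92 to 0.99), 0.10 for Mki67 (-0.79 to 1.00), 0.09 for Ccna2 (-0.84 to 1.03), 0.30 for Ccnb1 (-0.45 to 1.05) and 0.32 for Cdk1 (-0.67 to 1.31). None of the 5 was called, against 0.0259% of genes, and their FDR was 0.864 or more (edgeR quasi-likelihood test). The 4 genes behind that share became 32 with DESeq2, 43 with edgeR's exact test and 74 with the rebuilt pipeline, again with none of the 5 called. The 2 rats of D lay within the range of C for Top2a, Mki67, Ccnb1 and Ccna2, and for Cdk1 rat 76 was just above rat 89, at 29.9 against 29.7 CPM. Without rat 76 the estimates ran from -0.58 for Ccna2 to -0.14 for Ccnb1, without rat 89 of C from 0.55 for Mki67 to 0.97 for Cdk1, and with the low and high rat numbers fitted as a covariate, which D holds on one side alone, from 0.46 for Ccna2 to 1.23 for Cdk1.

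D against B, which differ in both stimulation and pimozide, gave 0.60 for Top2a to 0.86 for Cdk1, none called. The estimates rest on rat 76 of D: without it they ran from -0.0038 for Ccna2 to 0.33 for Ccnb1, and with the low and high rat numbers as a covariate from 1.04 for Ccna2 to 1.77 for Cdk1. The unadjusted p was lowest for Ccnb1, at 0.046, with an FDR of 0.572 (edgeR quasi-likelihood test), against 0.0194% of genes called as higher. The order of the group means was D, C, B for each of the 5 genes, and no neighbours in that order differed by the test. The share of all genes with that order was not counted.

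In intact rats, ±st(0), E against A, the estimates had no common sign. They were -0.22 for Top2a (95% interval -1.18 to 0.73), -0.61 for Mki67 (-1.44 to 0.22), -0.65 for Ccna2 (-1.72 to 0.42), 0.21 for Ccnb1 (-0.50 to 0.93) and 0.38 for Cdk1 (-0.85 to 1.61). None was called, as was 0 of all genes tested, with 1297 at an unadjusted p under 0.05. DESeq2 and edgeR's exact test each called 15 of all genes and the rebuilt pipeline 25, none of the 5 among them. The interaction, the effect of stimulation in injured rats minus that in intact rats, was 1.25 for Mki67 (95% interval 0.09 to 2.42, unadjusted p = 0.0362), 1.23 for Ccna2 (-0.15 to 2.60), 0.79 for Top2a (-0.50 to 2.08), 0.26 for Ccnb1 (-0.74 to 1.25) and 0.16 for Cdk1 (-1.42 to 1.74). These estimates too rest on rat 89 of C. Without it they were 0.81 for Mki67 (edgeR quasi-likelihood test, unadjusted p = 0.139), 0.52 for Ccna2, 0.17 for Top2a, -0.36 for Ccnb1 and -0.49 for Cdk1. Without rat 83 or 84 of A, 94 or 95 of B, or 69, 85 or 86 of E, the unadjusted p for Mki67 was 0.058 to 0.087 (edgeR quasi-likelihood test). After adjustment over all genes each FDR was 1 by the edgeR quasi-likelihood test, 0 genes were called, and 635 had an unadjusted p under 0.05.

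**Figure D2:**
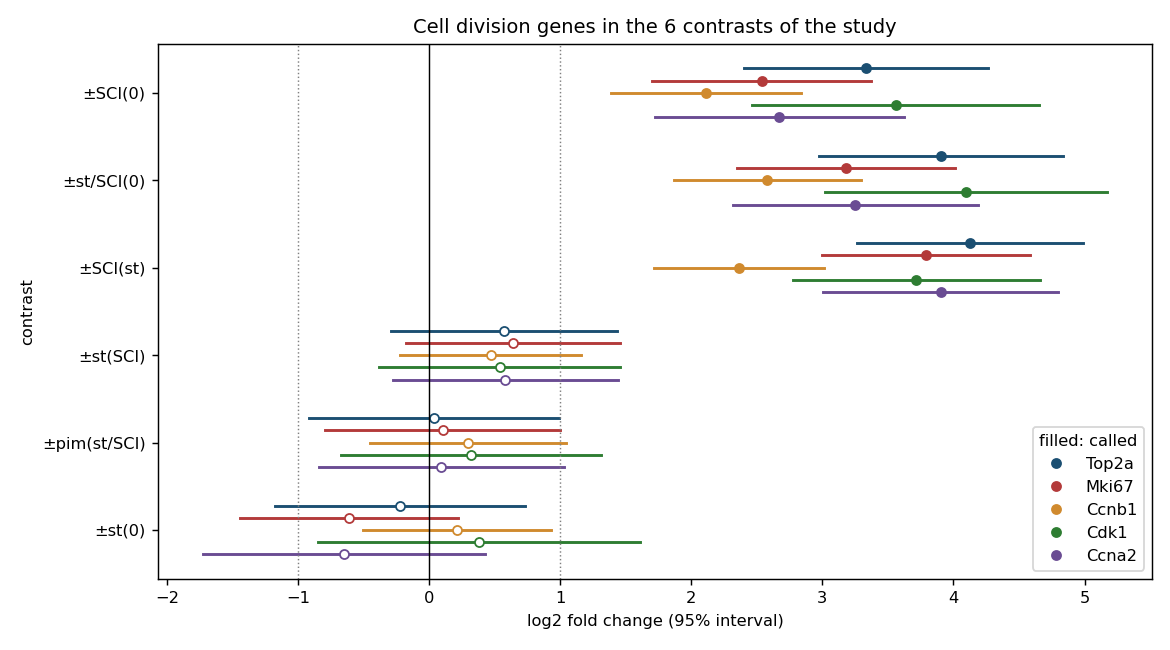
The log2 fold change (x axis) of each gene in the 6 contrasts of the study (y axis), with 95% intervals, filled where the gene was called and dotted lines at the limit of 1. In the 3 contrasts of injured with intact rats every interval lies above 1, and in the other 3 contrasts every interval includes 0.

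The 5 genes varied together from rat to rat within the injured groups. In B, rat 91 was highest, 95 next and 94 lowest for every one of the 5 genes. In C the order was 89, 90, 93 for all 5, and in D rat 76 exceeded rat 75 for all 5. Rat 89 exceeded rat 93 by 3.36-fold for Top2a, 2.84-fold for Mki67, 3.34-fold for Ccna2, 2.84-fold for Ccnb1 and 3.85-fold for Cdk1. Rat 76 exceeded rat 75 by 1.73-fold for Ccnb1 to 2.23-fold for Cdk1.

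The intact groups were less uniform. In A, rat 70 was lowest for 4 of the 5 genes and rat 84 highest for 4, and the 5 genes gave 3 different orders. In E each gene had its own order, with rat 69 lowest for 2 genes and rat 88 highest for 3 and lowest for Ccna2. Rats 70 and 69 have low numbers, as have both rats of D (75 and 76), while the other rats are numbered 82 to 95. Averaged over the 5 genes, log2(CPM + 0.5) centred on the 17 rats was -1.36 ± 0.52 in A, -1.47 ± 0.27 in E, 1.27 ± 0.45 in B, 1.698 ± 0.84 in C and 1.95 ± 0.72 in D (SD).

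All 5 genes varied more between rats of a group than most genes did. The biological coefficient of variation, the relative spread between rats beyond counting, was 38.6% for Top2a, 35.5% for Mki67, 36.9% for Ccna2, 28.7% for Ccnb1 and 40.4% for Cdk1. The value common to all genes was 14.3%. A lower value was found in 90.9% of the genes tested for Ccnb1 and in 96.5% for Cdk1, with the other 3 genes between.

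**Figure D3:**
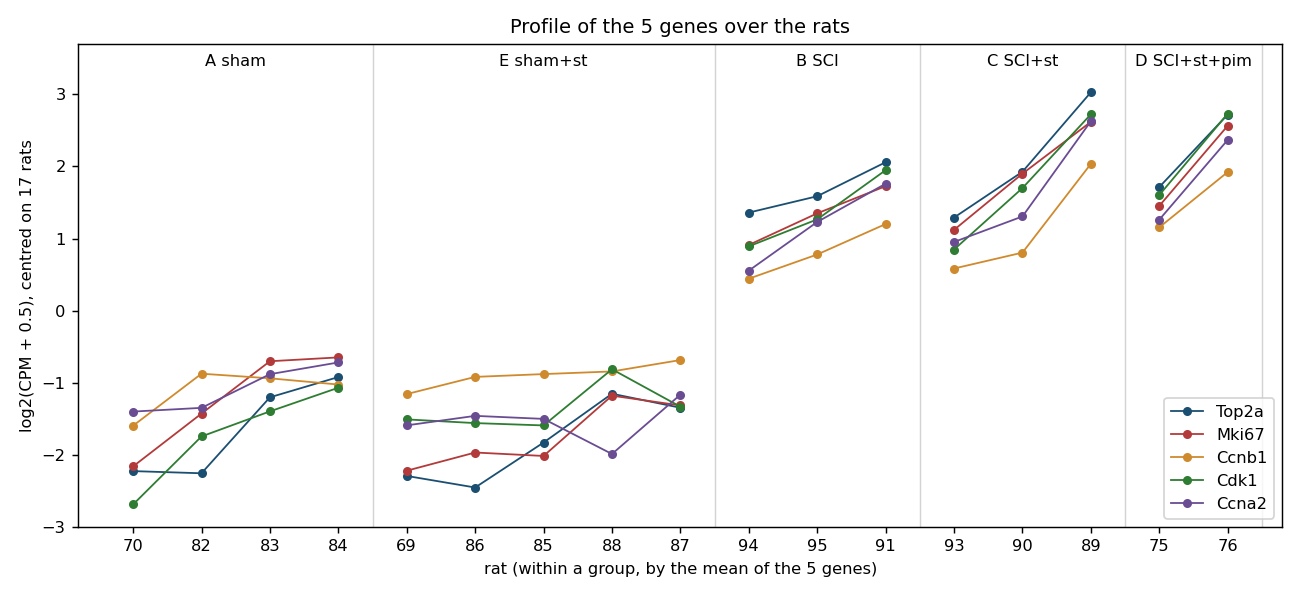
The log2(CPM + 0.5) of each gene, centred on its mean over the 17 rats (y axis), with rats ordered within each group by the mean of the 5 genes (x axis). In B, C and D the 5 lines all rise from 94 to 91, 93 to 89 and 75 to 76, by unequal steps, with Ccnb1 lowest of the 5.

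The rise was not of equal size. A ratio of counts of 2 genes within a rat needs no scaling between libraries, and all 10 such ratios were compared between the 8 injured and 9 intact rats with 2-sided exact permutation tests, adjusted over the 10. Each of the other 4 genes rose relative to Ccnb1. The log2 of the ratio of Top2a to Ccnb1 was 2.60 ± 0.17 in injured and 1.07 ± 0.59 in intact rats, a difference of 1.53 or a 2.89-fold larger rise (exact permutation p = 8.23e-05, the smallest possible, adjusted 0.000411). Cdk1 gained 1.46 on Ccnb1 (exact permutation, adjusted p = 0.000411), Mki67 1.01 (adjusted p = 0.00148) and Ccna2 1.01 (adjusted p = 0.00123). The injured and intact rats did not overlap in the ratios of Top2a and Cdk1 to Ccnb1, and overlapped in those of Mki67 and Ccna2.

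Top2a also gained 0.52 on Mki67 (exact permutation, adjusted p = 0.00123). The other 5 ratios did not pass the exact permutation test: Top2a to Ccna2 differed by 0.53 (adjusted p = 0.0857), Cdk1 to Ccna2 by 0.46 (adjusted p = 0.353), Mki67 to Cdk1 by -0.45 (adjusted p = 0.14), Top2a to Cdk1 by 0.07 (adjusted p = 0.895) and Mki67 to Ccna2 by 0.01 (adjusted p = 0.959). For a pair of these the call rests on rat 88 of E, whose Ccna2 value is 6 counts. Without it Top2a to Ccna2 differed by 0.73 (exact permutation, adjusted p = 0.000518) and Cdk1 to Ccna2 by 0.70 (adjusted p = 0.00333). The difference relative to Ccnb1 was above 0 in the means on both sides of stimulation, where it was not tested. For Top2a it was 1.32 in B against A and 1.82 in C against E, for Cdk1 1.63 and 1.31, for Mki67 0.52 and 1.51, and for Ccna2 0.49 and 1.504. In group A alone the SD between rats was 0.50 for the ratio of Mki67 and 0.44 for that of Ccna2, about as large as their differences between B and A.

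Among injured rats the ratios were tight. The SD of the log2 ratio was 0.14 to 0.23 over the 10 ratios in the injured rats (n = 8) and 0.35 to 1.03 in the intact ones (n = 9), where counts of Cdk1 were 2 to 24 and of Ccna2 6 to 20.

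**Figure D4:**
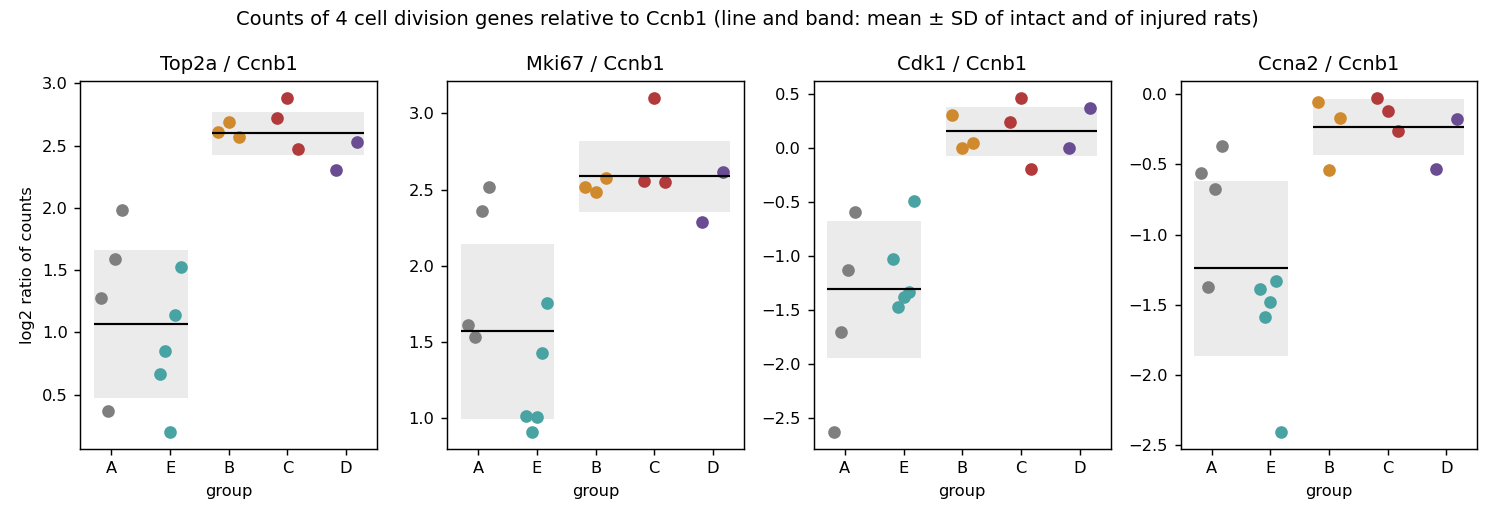
The log2 ratio of the counts of 4 genes to those of Ccnb1 (y axis) by group, 1 point per rat, with the mean (line) and SD (band) of the 9 intact and the 8 injured rats. The injured mean is higher in each panel, by 1.53 for Top2a, 1.01 for Mki67, 1.46 for Cdk1 and 1.01 for Ccna2.

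Genes whose profile over the 17 rats came closest to the mean profile of the 5 were sought among the 14515 genes that averaged 1 CPM or more, by the root mean square difference of centred log2(CPM + 0.5). The closest was ENSRNOG00000007906, at a distance of 0.19, with 0.962 CPM in A, 0.92 in E, 10.4 in B, 14.4 in C and 17.1 in D. ENSRNOG00000045646 followed at 0.207. The 5 genes themselves lay at 0.232 (Mki67) to 0.509 (Ccnb1) from their own mean. In all, 14 genes lay under 0.3 and 109 under 0.5, where the median gene lay at 1.61. None of the 100 closest could be given a name, and with a pseudocount of 0.1 or 2 CPM 3 of the 5 closest were again among the 5 closest.

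The other genes of the cell cycle, in 7 lists from DNA replication to the inhibitors of division, could not be matched to identifiers and were not analysed here. Of 16 lists of cell type markers, 3 had any member with a name, and these names come from genes that the study picked on these same rats. They are 7 of 10 genes of marrow myeloid precursors (such as Mpo, Elane and Ctsg of neutrophil granules), 8 of 10 of erythroid precursors (such as Alas2 and Klf1) and 2 of 10 of neutrophils (S100a8 and S100a9). Precursors in marrow divide, so these levels are given beside those of the 5 genes.

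The summed level of the 7 myeloid precursor genes was 2.60 to 30.9 CPM in A, 3.49 to 21.6 CPM in E, 6.06 to 10.3 CPM in B, 28.3 to 48.2 CPM in C and 11.2 to 16.8 CPM in D. In this sum the 3 rats of B lay inside the range of A, where the 5 division genes differed by a log2(FC) of 2.11 to 3.56. All rats of C lay above all rats of B. Single genes of the sum did not all move alike. In raw counts, Fcnb was at 22 to 163 in injured and 2 to 27 in intact rats, and Epx at 2 to 20 and 0 to 62. The ranges of injured and intact rats overlapped for each of the 7 genes. The 8 erythroid genes summed to 5.63 to 33.7 CPM in A, 7.34 to 23.8 in E, 8.99 to 13.7 in B, 28.8 to 62.4 in C and 7.18 to 12.97 in D, and in C the rat highest for the division genes, 89, was the lowest in this sum. S100a8 and S100a9 summed to 3.13 to 48.8 CPM in A, 3.83 to 55.9 in E, 12.3 to 16.7 in B, 55.1 to 87.4 in C and 15.3 to 20.03 in D. Rhag was at 0 in 4 rats, Elane and Ctsg in 2 each and Epx in 1.

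In the intact groups the rats lowest for the division genes were also lowest for the myeloid genes. In A, rat 70 had the lowest sum of both (11.6 CPM for the 5 division genes and 2.60 CPM for the myeloid genes) and rat 84 the highest of both (31.4 and 30.9 CPM). In E, rat 69 had 12.6 and 3.49 CPM and rat 86 13.7 and 3.71 CPM, the lowest of both sums, and rats 87 and 88 had 22.7 and 24.4 CPM of the division genes beside 21.6 and 12.5 CPM of the myeloid genes. Rat 85 of E had 15.5 and 12.7 CPM. The injured groups differed in this. In C both sums had the order 89, 90, 93, with 394, 201 and 125 CPM of the division genes and 48.2, 47.6 and 28.3 CPM of the myeloid genes. In D, rat 76 had 350 CPM of the division genes and 11.2 CPM of the myeloid genes and rat 75 had 168 and 16.8 CPM, and in B the highest myeloid sum was in rat 95 and the highest division sum in rat 91. The part of these cells in the levels of the 5 genes was not tested.

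**Figure D5:**
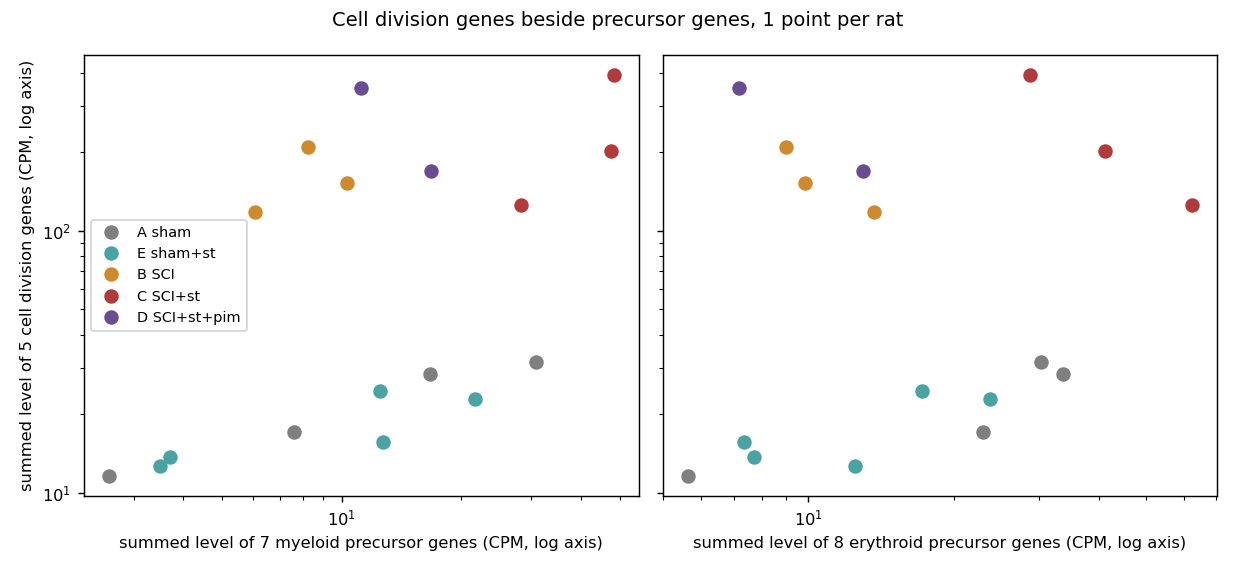
Summed level of the 5 division genes (y axis, CPM, log axis) against that of 7 myeloid precursor genes (left) and 8 erythroid precursor genes (right, x axes in CPM, log axis), 1 point per rat. The injured rats lie at 118 to 394 CPM on the y axis and the intact rats at 11.6 to 31.4 CPM, and the rats of B and D share the x range of the intact rats.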

How the data were processed

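The deposited table holds raw counts per Ensembl gene. The authors obtained them from single-end reads of 75 bases, trimmed with Trim Galore 0.4.1, aligned with STAR 2.5.0a and counted by its GeneCounts function. The methods name the genome as Rnor_5.0 and the submitters' processing notes name Rnor_6.0, and which strand column was counted is not given in the sources used here. No coordinates were taken from those builds, and promoters are those of RefSeq on GRCr8.

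Rats were grouped by the letter in their titles. The 5 genes and all lists were chosen with earlier results of these data known. Counts of all 17 rats were fitted in 1 model with a term for group (edgeR 4.0.16 in R 4.3.3, TMM scaling, filterByExpr, glmQLFit, glmQLFTest), with Benjamini-Hochberg adjustment over the 15460 genes tested. The 95% intervals come from that fit and cover no more than the spread between rats. Ratios used counts + 0.5 and exact permutation tests (scipy 1.17.1). The genes named are the 5 members in every contrast, and the closest genes in profile, of which identifiers are given for 2. The rule also named members of the pathway lists, none of which could be matched. Only 99 identifiers have names here.

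Alternatives were RLE scaling, scaling by total counts, no filter, a filter of 1 CPM in 3 rats, edgeR's exact test, DESeq2 1.42.0, a covariate for low (69 to 76) against high (82 to 95) rat numbers, calls without a fold limit, robust dispersions, only the rats of each contrast, a rebuild of the pipeline of the study from its methods (the exact test on each pair of groups, total-count scaling, no filter), and leaving out each rat. Chosen after seeing the data were rats 82 to 95 alone, the contrasts of D with A, E and B and of B with E, the ratios, and their alternatives (a pseudocount of 2 counts, each rat left out).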

Additional observations from a re-analysis of the deposited data

Results flagged for a closer look

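Of 10 sets of values of 1 gene in 1 group (the 5 genes in groups A and E, which alone have 4 or more rats), 1 had a rat apart from the others by Dixon's gap test. Cdk1 in rat 88 of group E was at 2.10 CPM, where the other rats of E lay at 1.02 to 1.31 CPM. Chance alone flags about 1 group in 20. The value rests on 24 counts and lies below every injured rat.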

How the results depend on the processing

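The number of the 5 genes called in a contrast kept its value in 338 of 338 alternatives over the 12 comparisons, 5 in the contrasts of injured with intact rats and 0 in the others. The highest FDR of any of the 5 over the alternatives in contrasts of injured with intact rats was 0.00806, in ±SCI(0). Of 1690 alternative values of log2(FC) of single genes, 21 changed sign, all of them uncalled and all on leaving out 1 rat. In ±st(SCI), this was on leaving out rat 89 of C, with ranges over the omitted rats of -0.057 to 0.90 for Top2a, -0.15 to 0.75 for Ccnb1, -0.11 to 0.90 for Cdk1 and -0.13 to 0.93 for Ccna2. In ±pim(st/SCI) the ranges were -0.55 to 0.66 for Top2a, -0.56 to 0.56 for Mki67, -0.14 to 0.92 for Ccnb1, -0.37 to 0.97 for Cdk1 and -0.58 to 0.81 for Ccna2, with the lowest value of each without rat 76 of D, and values below 0 also without rat 93 of C (Top2a, Mki67, Cdk1 and Ccna2) and rat 90 of C (Top2a and Ccna2). In D against B, Ccna2 ran from -0.0038, without rat 76, to 1.14. In ±st(0), Top2a ran from -0.43 to 0.078, the latter without rat 84 of A. In the interaction, Ccnb1 ran from -0.36 to 0.53 and Cdk1 from -0.49 to 0.52, both lowest without rat 89, and Cdk1 was below 0 also without rat 84 of A or rat 94 of B. The 5 ratios that passed their test did so in all 18 alternatives, with 1.42 to 1.65 for Top2a to Ccnb1. Of the others, Top2a to Ccna2 passed in 2 of the 18, without rat 88 of E and with a pseudocount of 2 counts (0.64, exact permutation, adjusted p = 0.027), and Cdk1 to Ccna2 in 1, without rat 88. Top2a to Cdk1 ran from -0.028 to 0.26 (below 0 without rat 69 or 86 of E) and Mki67 to Ccna2 from -0.071 to 0.18 (below 0 without rat 70 of A, 94 of B, 90 of C or 69, 85 or 86 of E). The number of all genes called, in either direction, moved more than that of the 5. In ±pim(st/SCI), 4 genes became 17 without a filter, 9 with C and D alone, 24 without rat 82 of A and 36 without rat 75 of D, 1 to 4 without any other single rat but 76, and 0 without rat 76. Without rat 82 of A, 49 genes were called in ±st(0) and 3 in the interaction, where 0 were called with it. Without rat 89 of C, 1103 became 664 in ±st/SCI(0) and 1285 became 812 in ±SCI(st). Without the limit on fold change, 820 became 1912 in ±SCI(0), 1103 became 3380 in ±st/SCI(0), 1285 became 4429 in ±SCI(st) and 1137 became 6976 over all injured against all intact rats. In the contrasts added, that setting took 1247 to 3796 in D against A, 1202 to 4179 in D against E and 990 to 3313 in B against E, and the first of these called 482 without rat 76 of D and 1940 without rat 75, and the second 527 and 1874. In D against B, 3 genes became 26 without rat 82 of A, 23 with DESeq2, 49 with edgeR's exact test and 83 with the rebuilt pipeline. Leaving out any other single rat of A, B, C or E gave 1 to 3. With windows from 100 bases before to 50 after the start, 8.21% held TTTGAA and 21.6% CCAAT. The exact test and the rebuilt pipeline were not run for the comparisons of more than 2 groups, and rats 82 to 95 hold none of D. No paired analysis was possible because no rat number is shared between groups. The precision is limited by the 2 to 5 rats of a group, and in intact rats by as few as 2 counts of Cdk1.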
